A study of Ovis aries with 19 samples.

Results

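The endoplasmic reticulum (ER) stress and protein folding genes described here are a set of 34 named genes, of which 33 were found by name among the 28524 gene identifiers of the table and 32 had a mean normalized read count of at least 10 in liver or in muscle. They fall into 2 genes of the IRE1 arm, 3 genes of the ATF6 and CREB3L factors, 5 genes of the PERK arm and integrated stress response, 11 chaperones and cochaperones, 4 disulfide isomerases and 7 genes of ER-associated degradation. All 32 passed the mean of 10 in liver. In muscle 30 did, since CREB3L3 and DERL3 were below it. DERL3 lay just inside the rule, with a mean of 17.2 in liver, and CHAC1, a glutathione-degrading enzyme induced in the integrated stress response, lay just outside it, with 9.0. EDEM2, a mannosidase-like protein of ER-associated degradation, was not listed under its symbol and stands outside the count. A row matched to it by gene number averaged 356 ± 78.2 normalized reads in prenatal T livers (SD, n = 5) and 331 ± 113 in control livers (SD, n = 4), and 68.5 ± 11.5 in prenatal T muscles and 64.0 ± 30.5 in control muscles (SD, n = 5 each).

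RNA was sequenced from liver and muscle of 10 female sheep, Ovis aries. The groups were liver of sheep given prenatal T-treatment (excess testosterone before birth, n = 5), liver of control sheep (n = 4), muscle of sheep given prenatal T-treatment (n = 5) and muscle of control sheep (n = 5). The same sheep gave both tissues, except that the liver of control sheep 132 was not used here. The labels give no age, breed, dose or days of treatment, and within a tissue each library was a separate animal, named below by its sheep number.

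The ER is where secreted and membrane proteins fold, and unfolded protein there is sensed by IRE1, ATF6 and PERK, which together set off the unfolded protein response. IRE1 (encoded by ERN1) splices XBP1 mRNA into an active factor, ATF6 is cut by proteases to release a factor that raises chaperone genes, and PERK (encoded by EIF2AK3) phosphorylates eIF2 alpha, which slows translation while ATF4 mRNA is still translated. Liver cells secrete most plasma proteins and hold a large ER, while skeletal muscle fibres have a sarcoplasmic reticulum given over largely to calcium handling. The values are transcript levels: XBP1 splicing, ATF6 cleavage and protein phosphorylation were not measured.

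Liver libraries held 10236610 to 16046301 reads and muscle libraries 8455563 to 14331578, as recovered from the normalized values. The control liver of sheep 201 stood apart, with 20704 genes detected on 10325699 reads, against 16852 to 18289 genes in the other livers. The part of this in its values was not tested. Both tissues carried their own markers: 8 hepatocyte genes summed to 890126 normalized reads or more in every liver and to 168 or fewer in every muscle, while 8 skeletal muscle genes summed to 119 or fewer in every liver and to 828665 or more in every muscle. The library numbers in the labels run in a separate series for each tissue, so tissue and library series cannot be told apart. No batch within a tissue is named.

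The first comparison set prenatal T livers against control livers. None of the 32 genes passed the adjusted threshold of 0.05 with limma, edgeR or DESeq2, where 0.00733% of the 13640 genes tested did with limma. At an unadjusted p under 0.05, 1 gene was higher (1.82% of all genes) and 1 was lower (2.17% of all genes), counts near the share of all genes. The higher gene was DDIT3 and the lower one was CREB3L3. These were also the only members whose liver groups did not overlap, where 0.858% of all genes were higher and 0.682% lower without overlap. Over the 32 genes 20 estimates lay above 0 and 12 below, with a median log2 difference of 0.0815, against 0.0032 for all genes.

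CREB3L3 encodes CREBH, an ER-anchored transcription factor of hepatocytes that is released by cleavage and controls genes of triglyceride and acute-phase metabolism. Its normalized read count was 3180, 4715, 3002, 2522 and 2470 in the prenatal T livers of sheep 48, 63, 185, 233 and 255, against 6725, 5968, 5436 and 5240 in the control livers of sheep 98, 131, 179 and 201. Each prenatal T liver was below each control liver, and sheep 63 came nearest to the controls. The mean was 3178 ± 912 in prenatal T livers (SD, n = 5) and 5842 ± 664 in control livers (SD, n = 4). The log2 difference was -0.91 ± 0.24 (SE; limma adjusted p = 0.865, unadjusted p = 0.00275; DESeq2 adjusted p = 0.108), and with each library left out in turn it stayed between -1.07 and -0.83 with an unadjusted p of at most 0.0103. In 1 fit of all 19 libraries, which gives both tissues 1 estimate of the spread, the unadjusted p was 0.164. That estimate takes in the muscles, where CREB3L3 had 0 to 9.45 normalized reads, too few to be tested there. In bulk tissue, fewer cells of a type and less RNA per cell cannot be told apart.

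DDIT3 encodes CHOP, the transcription factor of the late PERK and ATF4 response that is linked to cell death under lasting stress. It had 163, 210, 208, 268 and 185 normalized reads in prenatal T livers (sheep 48, 63, 185, 233 and 255), against 120, 117, 73.0 and 146 in control livers (sheep 98, 131, 179 and 201). The lowest prenatal T liver, of sheep 48, was above the highest control, of sheep 201. The mean was 207 ± 39.1 in prenatal T livers (SD, n = 5) and 114 ± 30.2 in control livers (SD, n = 4), a log2 difference of 0.88 ± 0.26 (SE; limma adjusted p = 0.865, unadjusted p = 0.00567; DESeq2 adjusted p = 0.235). The unadjusted p stayed at or under 0.0165 with any 1 library left out.

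The rest of the PERK arm did not separate the groups. EIF2AK3, the kinase itself, had 307, 327, 324, 436 and 261 normalized reads in prenatal T livers against 290, 259, 289 and 196 in controls, with only the liver of sheep 255 inside the control range. ATF4, the factor upstream of DDIT3, had 2946, 4113, 3716, 4316 and 2179 in prenatal T livers against 3540, 4727, 3696 and 2733 in controls, and the groups overlapped. Its log2 difference was -0.11, with a 95% interval of -0.69 to 0.48. PPP1R15A (GADD34), which leads the phosphatase that resets eIF2 alpha, averaged 249 ± 93.9 in prenatal T livers (SD, n = 5) and 238 ± 93.1 in controls (SD, n = 4). ASNS, asparagine synthetase and an ATF4 target, averaged 216 ± 40.9 in prenatal T livers and 269 ± 138 in controls. DDIT3 was the only one of the 5 genes of this arm whose liver groups did not overlap.

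**Figure D1:**
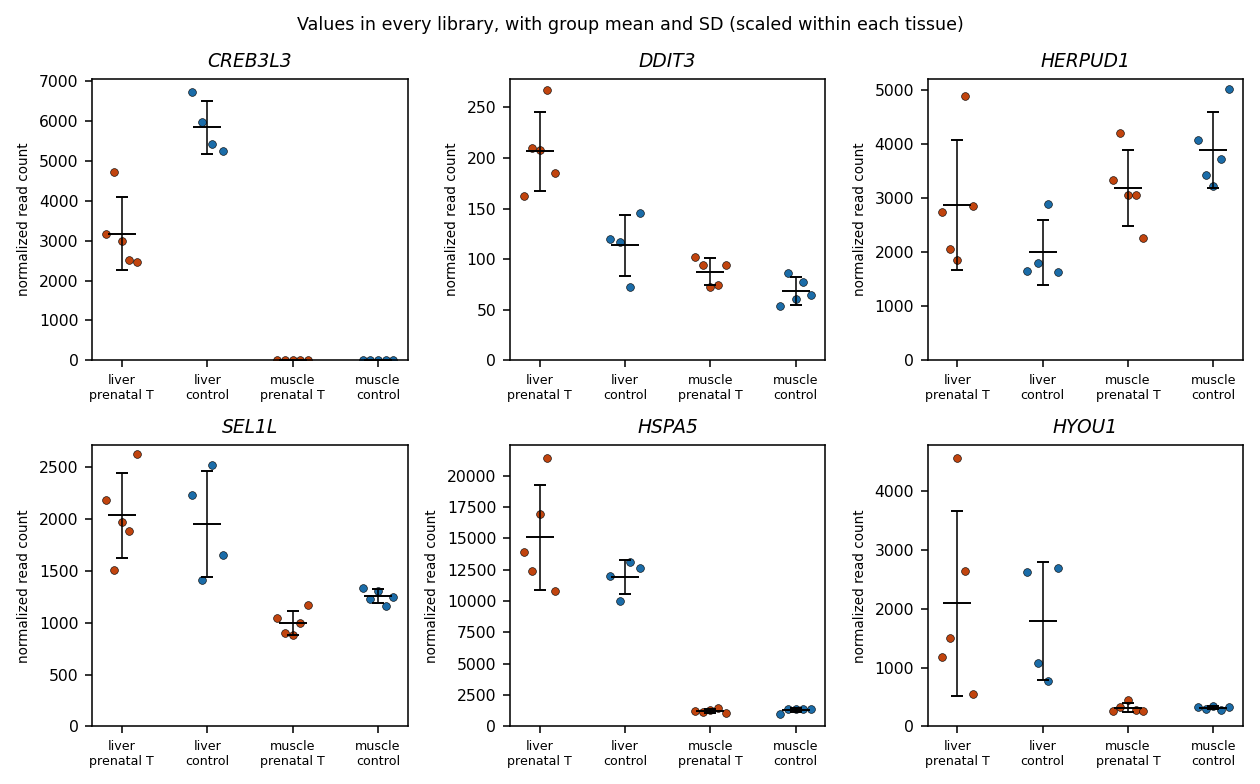
Normalized read count (y axis, from 0) of 6 genes in every library, with prenatal T livers, control livers, prenatal T muscles and control muscles along the x axis; points are sheep, long dashes the group mean and whiskers the SD. The liver groups of CREB3L3 and DDIT3 do not overlap, those of HYOU1 spread from 559 to 4566, and values are scaled within a tissue, so heights are to be compared within liver or within muscle.

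In the IRE1 arm, high values came from few prenatal T livers. ERN1 had 617, 668, 1505, 1251 and 657 normalized reads in prenatal T livers (sheep 48, 63, 185, 233 and 255) against 841, 535, 732 and 753 in controls (sheep 98, 131, 179 and 201). Sheep 185 and 233 stood above all controls and the other 3 lay within their range. XBP1, the target that IRE1 splices, had 8301, 7443, 7937, 12160 and 6628 in prenatal T livers against 5619, 8192, 9163 and 6205 in controls, with sheep 233 above the rest. The log2 differences were 0.31 (95% interval -0.36 to 0.98) for ERN1 and 0.22 (-0.35 to 0.78) for XBP1. ATF6 had 739, 675, 1069, 1009 and 584 in prenatal T livers against 1160, 699, 826 and 688 in controls, and its groups overlapped, with a log2 difference of -0.05 (-0.62 to 0.51). CREB3L2, an ER-anchored factor related to CREB3L3, averaged 637 ± 128 in prenatal T livers (SD, n = 5) and 579 ± 105 in controls (SD, n = 4).

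Of the 11 chaperones and cochaperones, 10 had an estimate above 0 in liver, with a median log2 difference of 0.25, and no member had an unadjusted p under 0.05. Among the 10, CANX, CALR, HYOU1 and DNAJC3 lay between 0.025 and 0.082, and each fell below 0 with some library left out. HSPA5 (BiP), the main lumenal HSP70 and a standard readout of ER stress, had 13940, 12391, 16902, 21415 and 10786 normalized reads in prenatal T livers against 12019, 9984, 13074 and 12606 in controls. Sheep 48, 185 and 233 were above every control, and sheep 255 was below 3 of the 4 controls. Its log2 difference was 0.30 ± 0.26 (SE; adjusted p = 0.999), with a 95% interval of -0.27 to 0.88. HSP90B1 (GRP94), the lumenal HSP90, had 23180, 21764, 24789, 27492 and 21541 in prenatal T livers against 16396, 16521, 24626 and 23595 in controls, where sheep 98 and 131 were low. DNAJB9 (ERdj4), a BiP cochaperone and XBP1 target, had 6257, 4567, 3133, 8750 and 5107 in prenatal T livers against 2178, 3242, 6936 and 2802 in controls. Its control of sheep 179 was higher than 4 of the 5 prenatal T livers.

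MANF, a secreted ER stress protein that binds BiP, had the smallest unadjusted p of the chaperone group in liver. It had 2581, 2295, 3071, 3928 and 1971 normalized reads in prenatal T livers (sheep 48, 63, 185, 233 and 255) against 1368, 1366, 2429 and 2618 in controls (sheep 98, 131, 179 and 201). Only sheep 185 and 233 were above every control. Its log2 difference was 0.53 ± 0.29 (SE; adjusted p = 0.999, unadjusted p = 0.0906). The other estimates ran from -0.18 for SDF2L1, part of the BiP complex, to 0.62 for DNAJB9. CRELD2, a folding factor raised by ATF6, averaged 768 ± 513 in prenatal T livers (SD, n = 5) and 531 ± 398 in controls (SD, n = 4). The ratio of these means was 1.45, and it was 2.26 without the control liver of sheep 201, which left a control mean of 340.

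The 4 disulfide isomerases, which form and rearrange disulfide bonds in the ER lumen, gave log2 differences between -0.11 for P4HB and 0.20 for PDIA4. PDIA4 had 9890, 9688, 11325, 10267 and 11429 normalized reads in prenatal T livers against 8492, 6903, 8110 and 14664 in controls, with the control of sheep 201 above all and the other 3 controls below all prenatal T livers. PDIA3 and PDIA6 differed by -0.03 (95% interval -0.54 to 0.48) and -0.04 (-0.54 to 0.47).

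The genes of ER-associated degradation, which export misfolded proteins to the proteasome, had a median log2 difference of -0.01 in liver. EDEM1, which marks glycoproteins for disposal, had 1354, 953, 1443, 1423 and 1207 normalized reads in prenatal T livers against 935, 1025, 815 and 1058 in controls. Sheep 63 alone fell within the control range, and the log2 difference was 0.40 ± 0.21 (SE; adjusted p = 0.999, unadjusted p = 0.0799). HERPUD1, a membrane protein that assembles the HRD1 ligase complex, had 2744, 2054, 1849, 4881 and 2851 in prenatal T livers against 1658, 1804, 2897 and 1633 in controls. Each prenatal T liver was above 3 of the 4 controls, and the control of sheep 179 was above 4 of the 5 prenatal T livers. SEL1L, the adaptor of that complex, averaged 2034 ± 411 in prenatal T livers (SD, n = 5) and 1950 ± 508 in controls (SD, n = 4), and SYVN1, the HRD1 ligase itself, averaged 976 ± 452 in prenatal T livers and 967 ± 364 in controls. DERL3, a derlin of secretory cells named here after its values were seen, averaged 11.8 ± 8.57 in prenatal T livers and 23.9 ± 12.6 in controls on 55 and 121 recovered reads in all, with an unadjusted p of 0.0804 and an adjusted p of 0.999.

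Markers of other cells were summed beside these values. The summed normalized count of 7 T and NK cell markers ranged from 209 to 552 in prenatal T livers against 185 to 362 in controls, and all 7 had an estimate above 0. That of 4 adipocyte markers ranged from 19.3 to 114 in prenatal T livers against 87.2 to 171 in controls, with LEP at 0 in every prenatal T liver and ADIPOQ at 0 in every control. This sum was nearly all CIDEC and PLIN1, with means of 63.8 and 22.9 over the livers. ADIPOQ and LEP, at 0.246 and 0.371, were too low to be tested, so the number of adipocytes cannot be read from it. Of the 7 T and NK cell markers 2 were higher at an unadjusted p under 0.05, where 1.82% of all genes were. The 2 adipocyte markers tested were lower at that p, where 2.17% of all genes were. No T and NK cell or adipocyte marker passed the adjusted threshold. The sums of the macrophage, fibroblast and stellate, and endothelial markers overlapped between the liver groups. The 9 plasma and B cell markers, cells in which DERL3 and XBP1 are abundant, summed to 684 to 1357 in prenatal T livers and 417 to 1811 in controls. JCHAIN, with a mean of 857 over the livers, made up most of that sum, against 53.8 for MZB1. Of the 5 tested, 2 had an estimate above 0 and 3 below, with a median log2 difference of -0.794 and a median residual SD of 1.17. None had an unadjusted p under 0.05. The 8 hepatocyte markers summed to 890126 to 2145620 in prenatal T livers and 895874 to 1789670 in controls. The part of these cells in the values of DDIT3, CREB3L3 and DERL3 was not tested. The count of members higher at an unadjusted p under 0.05 was 3 without control sheep 179 and 2 without control sheep 201 or prenatal T sheep 63 or 185, and the count lower was 2 without prenatal T sheep 233. The share of all genes was not counted with a library left out.

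**Figure D2:**
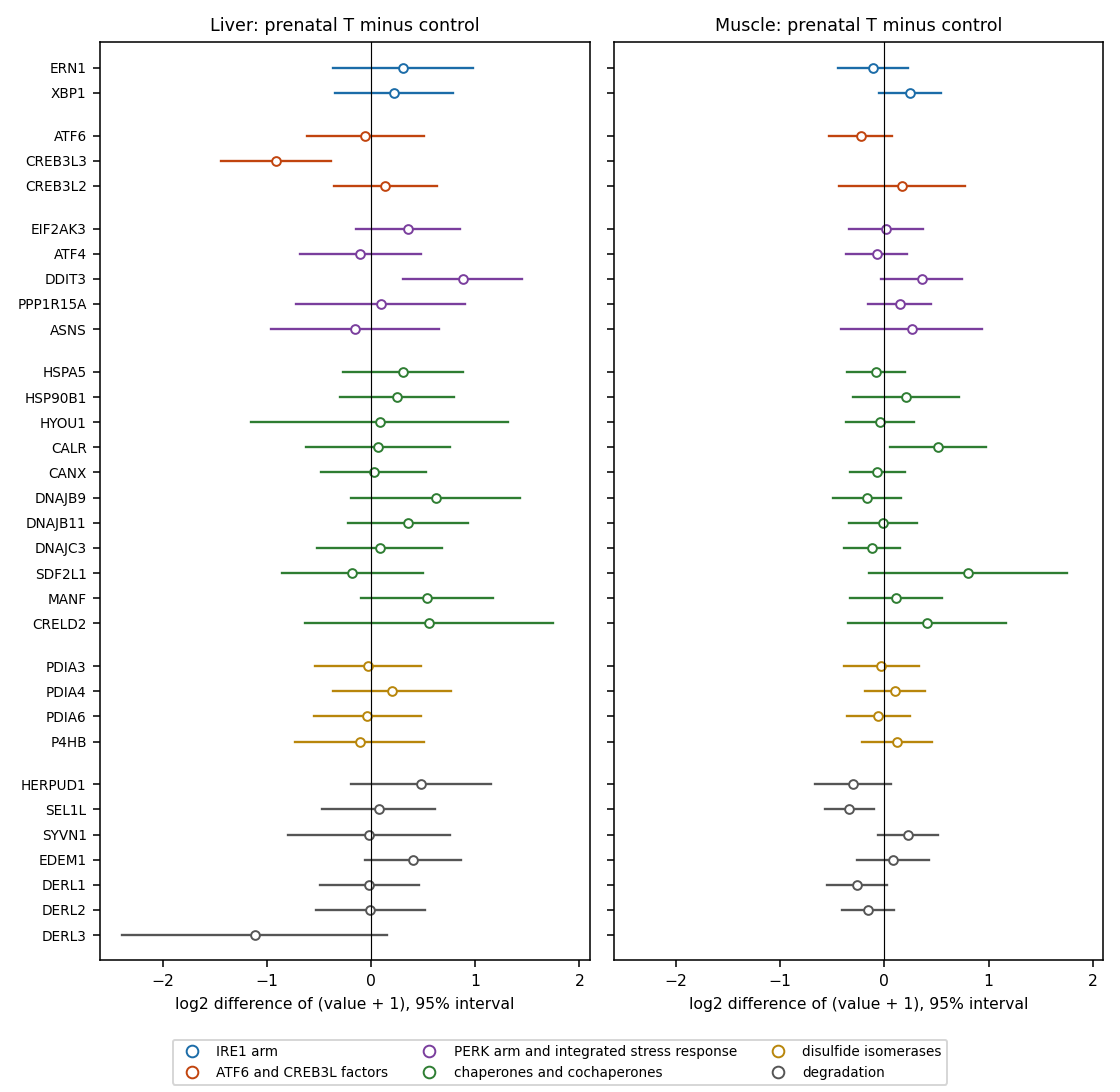
Log2 difference of (normalized read count + 1), prenatal T minus control, for the 32 genes in liver (left panel) and the 30 measured in muscle (right panel), with 95% intervals and colours by role. Open circles mark genes that did not pass an adjusted p of 0.05, which is every gene shown, and 10 of the 11 chaperones lie right of 0 in liver against 5 of 11 in muscle. CANX, CALR, HYOU1 and DNAJC3 are among the 10 in liver and lie near 0.

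The second comparison set prenatal T muscles against control muscles. None of the 30 genes tested passed the adjusted threshold with limma, edgeR or DESeq2, where 0.00771% of the 12966 genes tested did with limma. At an unadjusted p under 0.05, 1 gene was higher (7.37% of all genes) and 1 was lower (7.0% of all genes), which is below the share of all genes. No member had groups without overlap, where 1.76% of all genes were higher and 1.53% lower without overlap. The estimates split into 15 above and 15 below 0, with a median of -0.00103 on the log2 scale, against -0.013 for all genes.

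SEL1L had 1044, 904, 879, 993 and 1171 normalized reads in prenatal T muscles (sheep 48, 63, 185, 233 and 255), against 1330, 1228, 1303, 1163 and 1250 in control muscles (sheep 98, 131, 132, 179 and 201). Only sheep 255 reached the control range, just above the control of sheep 179. The mean was 998 ± 117 in prenatal T muscles and 1255 ± 65.3 in control muscles (SD, n = 5 each), a log2 difference of -0.34 ± 0.11 (SE; limma adjusted p = 0.214, unadjusted p = 0.00937; DESeq2 adjusted p = 0.0996). It stayed between -0.395 and -0.29 with each library left out in turn, with an unadjusted p of at most 0.0249. Its partner SYVN1 averaged 282 ± 33.2 in prenatal T muscles and 242 ± 33.3 in controls (SD, n = 5 each), with an estimate of 0.22 in the other direction and an adjusted p of 0.476. DERL1, a channel component of the same route, averaged 1693 ± 128 in prenatal T muscles and 2056 ± 351 in controls (SD, n = 5 each), with an unadjusted p of 0.0681 and an adjusted p of 0.385.

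CALR encodes calreticulin, a lumenal chaperone of glycoproteins that also stores calcium. It had 41.6, 38.0, 35.6, 37.5 and 54.4 normalized reads in prenatal T muscles against 25.8, 36.8, 22.0, 26.7 and 32.8 in controls. Sheep 185 of the prenatal T group was below the control of sheep 131, and otherwise the groups were apart. The log2 difference was 0.51 ± 0.22 (SE; limma adjusted p = 0.308, unadjusted p = 0.0326), and the unadjusted p was above 0.05 without control sheep 98, 132 or 179 or prenatal T sheep 48 or 255, at up to 0.0863.

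Of the sensors and factors in muscle, ERN1 had 138, 109, 151, 121 and 149 normalized reads in prenatal T muscles against 161, 120, 132, 132 and 180 in controls, and the groups overlapped. XBP1 had 599, 424, 624, 542 and 697 in prenatal T muscles against 445, 519, 531, 454 and 461 in controls, and 4 of the 5 prenatal T muscles were above every control. Its unadjusted p was 0.0991 and its adjusted p 0.445. ATF6 had 368, 447, 356, 450 and 542 in prenatal T muscles against 437, 541, 527, 439 and 577 in controls, with sheep 48 and 185 the lowest. EIF2AK3 had 72.0, 67.2, 69.1, 84.3 and 86.4 in prenatal T muscles against 85.4, 66.0, 72.6, 90.6 and 62.9 in controls, and its mean was 75.8 in prenatal T muscles and 75.5 in controls.

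DDIT3 had 102, 94.7, 72.7, 74.1 and 94.2 normalized reads in prenatal T muscles (sheep 48, 63, 185, 233 and 255), against 53.6, 86.6, 60.5, 77.8 and 64.3 in controls (sheep 98, 131, 132, 179 and 201). As in liver the estimate was above 0, but here the groups overlapped, with 3 of the 5 prenatal T muscles above every control. The log2 difference was 0.36 ± 0.18 (SE; adjusted p = 0.385, unadjusted p = 0.068). ATF4 had 10738, 8723, 8364, 9242 and 10587 in prenatal T muscles against 10115, 8800, 11462, 10009 and 9738 in controls, and the groups overlapped.

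The muscle chaperones other than CALR gave no unadjusted p under 0.05. HSPA5 had 1215, 1165, 1316, 1437 and 1088 normalized reads in prenatal T muscles against 1014, 1410, 1361, 1413 and 1408 in controls, where sheep 98 stood apart below the others. HSP90B1 had 1392, 1284, 2436, 1577 and 1753 in prenatal T muscles against 855, 1289, 2337, 1443 and 1559 in controls, with sheep 185 and control sheep 132 high and control sheep 98 low. DNAJB9 had 627, 516, 367, 611 and 504 in prenatal T muscles against 550, 593, 502, 618 and 645 in controls, with sheep 185 lowest. MANF had 132, 95.5, 115, 135 and 160 in prenatal T muscles against 76.4, 135, 133, 154 and 99.8 in controls. The lowest MANF value was again that of control sheep 98. PDIA4 had 344, 413, 414, 365 and 542 in prenatal T muscles against 361, 371, 431, 362 and 390 in controls, with prenatal T sheep 255 highest. EDEM1 had 687, 697, 507, 802 and 619 in prenatal T muscles against 463, 620, 567, 792 and 697 in controls. In each of these 6 genes the groups overlapped, and the 95% interval for HSPA5 was -0.36 to 0.19 on the log2 scale.

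Beside the muscle values, 8 of 8 skeletal muscle markers had estimates below 0, and their sums ranged from 828665 to 1637440 in prenatal T muscles against 1548740 to 1836860 in controls. The T and NK cell markers summed to 162 to 270 in prenatal T muscles against 122 to 169 in controls, and the 4 adipocyte markers to 54.2 to 241 in prenatal T muscles against 113 to 580 in controls. Of the 6 T and NK cell markers tested, 1 was higher at an unadjusted p under 0.05 (7.37% of all genes). Of the 3 adipocyte markers tested, 2 were lower at that p (7.0% of all genes). None passed the adjusted threshold. The part of these cells in the values of SEL1L and CALR was not tested. The count of members higher at an unadjusted p under 0.05 was 0 without control sheep 98 or 179 or prenatal T sheep 48 or 255, and 2 without control sheep 131 or prenatal T sheep 63, 185 or 233. The count lower was 2 without control sheep 132 or 179 or prenatal T sheep 63 or 255. Shares of all genes were not counted for these fits.

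The third comparison asked whether the treatment effect differed between muscle and liver, as the muscle effect minus the liver effect. None of 30 genes passed the adjusted threshold with limma, edgeR or DESeq2, where 0.00855% of the 11697 genes tested did with limma. At an unadjusted p under 0.05, 1 was lower (2.34% of all genes) and 0 were higher (2.56% of all genes). That gene was HERPUD1, with estimates of -0.30 in muscle and 0.48 in liver. In muscle it had 3330, 4209, 3060, 3062 and 2265 normalized reads in prenatal T sheep 48, 63, 185, 233 and 255, against 4069, 3423, 3225, 3729 and 5026 in control sheep 98, 131, 132, 179 and 201. The muscle groups overlapped, with prenatal T sheep 255 lowest and control sheep 201 highest. The difference of the effects was -0.78 ± 0.35 on the log2 scale (SE; limma adjusted p = 0.973, unadjusted p = 0.0359). The unadjusted p was 0.0796, with a difference of -0.57, without the prenatal T liver of sheep 233, and it was also above 0.05 without control liver 98, 131 or 201, control muscle 98 or 201 or prenatal T muscle 255.

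With the sheep as a block, since the same sheep gave both tissues, 2 members (3.05% of all genes) had a negative difference with an unadjusted p below 0.05. HERPUD1 stood at -0.79 (adjusted p = 0.734) and DNAJB9 at -0.79 (unadjusted p = 0.0415, adjusted p = 0.803) in that fit. Without the block, next in order after HERPUD1 were DNAJB9 at -0.78 (unadjusted p = 0.0596, adjusted p = 0.973) and SDF2L1 at 0.98 (unadjusted p = 0.081, adjusted p = 0.973). For DDIT3 the difference was -0.52 with a 95% interval of -1.16 to 0.12, so its effects in the 2 tissues were not shown to differ. CREB3L3 could not be compared, since muscle held 27 of its reads over 5 prenatal T libraries and 8 over 5 control libraries. The count lower was 3 without the control liver of sheep 179, 2 without the prenatal T liver of sheep 185 and 0 without any 1 of the 7 libraries named above for HERPUD1. The count higher was 1 without the control muscle of sheep 132. Shares of all genes were not counted with a library left out.

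The fourth comparison set control livers against control muscles, on CPM, the recovered reads scaled to a common library total, with TMM scaling. Of the 32 genes 27 were higher in liver (36.5% of the 14909 genes tested were) and 3 were lower (32.8% of all genes were), and 26 were higher and 2 lower without overlap between groups, where 31.3% and 27.8% of all genes were. The median log2 difference of the members was 2.61, against 0.063 for all genes. All 11 chaperones and all 4 isomerases were higher in liver without overlap, by 2.26 to 5.71 and by 3.37 to 4.76 on the log2 scale. The 3 genes lower in liver were ATF4, PPP1R15A and HERPUD1. The 27 higher genes include CREB3L3 and DERL3, which passed the rule only through liver, and this largely fixed their direction.

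CREB3L3, which passed the rule only through liver, had the largest difference. It had 660, 567.8, 505 and 506 CPM in control livers of sheep 98, 131, 179 and 201, against 0, 0.0882, 0, 0.287 and 0.446 in control muscles of sheep 98, 131, 132, 179 and 201. It was thus near 0 in muscle, with 27825 reads over the control livers and 8 over the control muscles. SDF2L1 had 75.4, 86.3, 75.8 and 191 CPM in control livers against 0.485, 1.24, 2.09, 0.287 and 0.892 in control muscles, a log2 difference of (CPM + 1) of 5.71 ± 0.32 (SE; adjusted p = 1.28e-09). PDIA4, an isomerase with several thioredoxin-like domains, had 833, 657, 753 and 1416 CPM in control livers against 29.4, 30.3, 35.6, 29.9 and 31.8 in control muscles, a difference of 4.76 ± 0.22 (SE; adjusted p = 1.29e-10). The lowest liver stood far above the highest muscle in each of these 3 genes.

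XBP1 had 551, 779, 851 and 599 CPM in control livers against 36.2, 42.3, 43.9, 37.5 and 37.6 in control muscles, a log2 difference of 4.08 ± 0.18 (SE; adjusted p = 9.81e-11). MANF averaged 186 ± 62.8 CPM in control livers (SD, n = 4) and 9.83 ± 2.60 in control muscles (SD, n = 5), with the same difference of 4.08. Its values were 134, 130, 226 and 253 CPM in control livers against 6.23, 11.0, 11.0, 12.7 and 8.14 in control muscles. HSPA5 had 1180, 950, 1214 and 1217 CPM in control livers against 82.7, 115, 112, 117 and 115 in control muscles, a difference of 3.39 ± 0.18 (SE; adjusted p = 9.17e-10). Of the sensors, ERN1 was higher in liver by 2.42 (95% interval 2.00 to 2.85), EIF2AK3 by 1.83 (1.41 to 2.26) and ATF6 by 0.92 (0.50 to 1.35). The interval of XBP1 (3.69 to 4.48) lay above that of ERN1, the kinase that splices it, but a test between the 2 genes was not made.

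Within the PERK arm 3 genes were higher in liver and 2 were lower. ATF4 had 347, 450, 343 and 264 CPM in control livers (sheep 98, 131, 179 and 201) against 825, 717, 947, 826 and 795 in control muscles (sheep 98, 131, 132, 179 and 201), and each liver was below each muscle. Its log2 difference was -1.24 ± 0.20 (SE; adjusted p = 8.52e-05). PPP1R15A had 29.8, 28.7, 9.78 and 23.3 CPM in control livers against 79.4, 126, 131, 110 and 115 in control muscles, a difference of -2.33 ± 0.29 (SE; adjusted p = 5.88e-06). ASNS was higher in liver by 2.93 ± 0.34 (SE; adjusted p = 3.43e-06), and DDIT3 by 0.83 ± 0.23 (SE; adjusted p = 0.00615) with overlapping groups.

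The degradation genes had a median log2 difference of 0.84, with 5 higher in liver, 1 lower and 1 not called. HERPUD1 had 163, 172, 269 and 158 CPM in control livers against 332, 279, 266, 308 and 410 in control muscles, and the liver of sheep 179 was above the muscle of sheep 132. The log2 difference was -0.76 ± 0.21 (SE; adjusted p = 0.00561). Between prenatal T tissues it was -0.05 (adjusted p = 0.861), with means of 265 CPM in liver and 264 CPM in muscle (n = 5 each), and the test of that contrast is the difference of effects given above. SYVN1 and DERL2 were higher in liver by 2.1 and 2.04, SEL1L by 0.82 and EDEM1 by 0.84. DERL3 was higher by 1.30, but it passed the rule only through liver, which largely fixed its direction. DERL1 (0.12, 95% interval -0.29 to 0.52) and CREB3L2 (0.06, -0.49 to 0.60) passed in neither direction.

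Between prenatal T livers and prenatal T muscles 27 members were higher and 2 lower, where 35.2% of all genes were higher and 35.2% lower. The 27 again include CREB3L3 and DERL3. The direction of the tissue difference was called alike for all but HERPUD1 among the 30 genes called in controls. The call of 27 higher and 3 lower in controls was unchanged with any 1 library left out. Several members share their locus with another annotated gene, which unstranded counting could mix: HYOU1 with TRAPPC4 and VPS11, CANX with MAML1, PDIA6 with ATP6V1C2, SYVN1 with MRPL49, DERL1 with TBC1D31, PPP1R15A with PLEKHA4 and DDIT3 with MARS1. No row bore the name MARS1, and no other name or gene number was looked up for it, so its level was not seen. The overlaps apply to the treatment comparisons as well, DDIT3 in liver included.

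**Figure D3:**
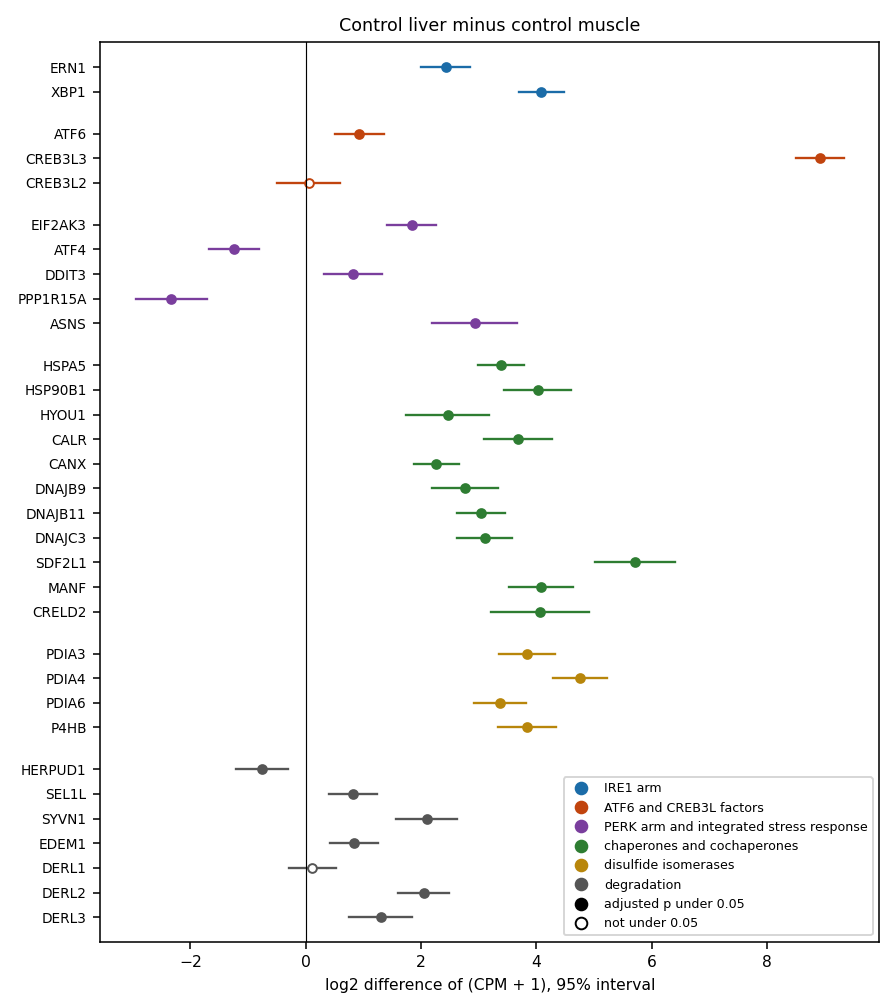
Log2 difference of (CPM + 1), control liver minus control muscle, for the 32 genes with 95% intervals, coloured by role; filled circles passed an adjusted p of 0.05. All chaperones and isomerases lie between 2.26 and 5.71, CREB3L3 lies at 8.92, and ATF4, PPP1R15A and HERPUD1 lie left of 0.

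The members varied less from sheep to sheep than the median gene, without matching for level. The median residual SD of a member was 0.352 on the log2 scale in liver, against 0.519 over all genes tested, and 0.219 in muscle, against 0.306. The SD was above that of the median gene for 7 of 32 members in liver and 6 of 30 in muscle. In liver PDIA3 was the steadiest (0.21) and HYOU1 the most variable (1.06). HYOU1 (GRP170), a nucleotide exchange factor of BiP named here after its values were seen, had 1187, 1498, 4566, 2646 and 559 normalized reads in prenatal T livers (sheep 48, 63, 185, 233 and 255) against 2620, 1083, 765 and 2692 in controls (sheep 98, 131, 179 and 201). Both the highest and the lowest liver were in the prenatal T group, 8.17-fold apart. CRELD2 had a like span of 7.87-fold, from 195 in control liver 179 to 1534 in prenatal T liver 185.

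Livers differed in their chaperones as a group. The mean log2 deviation of the 11 chaperones from the liver mean was 0.46 in prenatal T sheep 233, 0.44 in prenatal T sheep 185 and 0.29 in control sheep 201, and it was -0.41 in control sheep 131 and -0.365 in prenatal T sheep 255. The spread within the prenatal T group thus ran from near the bottom to the top of all livers. Prenatal T sheep 233 held the highest liver value of 9 members and prenatal T sheep 185 that of 7, while control sheep 131 held the lowest of 9. The isomerases followed another order at the top, with control sheep 201 highest at 0.42. Control sheep 131 was lowest for them too, at -0.435. Prenatal T sheep 185 had the highest HYOU1 and CRELD2 in both of its tissues.

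**Figure D4:**
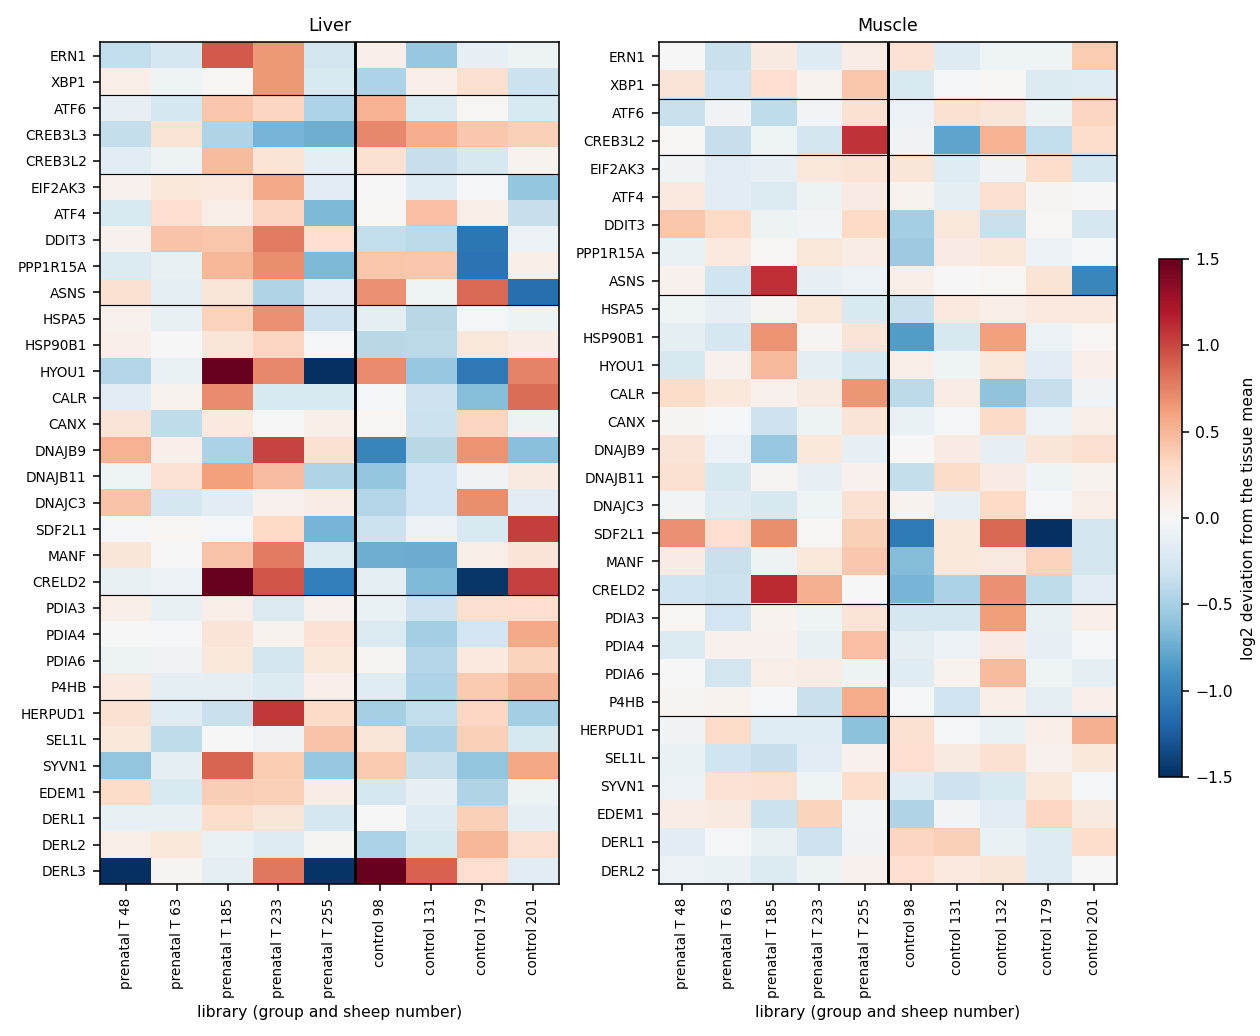
Log2 deviation of each gene (rows, grouped by role) from its mean over the libraries of a tissue, in each liver (left) and muscle (right) library, prenatal T sheep left of the black line and control sheep right of it; red is above and blue below the mean. The CREB3L3 row is blue in 4 of 5 prenatal T livers and red in all controls, and the chaperone rows are mostly red in prenatal T sheep 185 and 233 and blue in control sheep 131.

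Beyond the members, 127 further genes of the same pathways were looked up in 5 lists. In liver none of the 122 tested passed the adjusted threshold with limma, edgeR or DESeq2, and 2 were higher and 3 lower in prenatal T livers at an unadjusted p under 0.05. Both counts are near the share of all genes, 1.82% higher and 2.17% lower. CREB3L4, another ER-anchored factor of the CREB3L family, averaged 48.9 ± 10.1 normalized reads in prenatal T livers (SD, n = 5) and 25.9 ± 10.5 in controls (SD, n = 4). FKBP14, a prolyl isomerase of the ER, averaged 154 ± 33.5 in prenatal T livers and 97.5 ± 39.4 in controls. The 3 lower genes were all on the list of further ATF4 and integrated stress response targets. SHMT2, a mitochondrial serine hydroxymethyltransferase, averaged 774 ± 148 in prenatal T livers and 1106 ± 97.0 in controls without overlap. ALDH1L2, a mitochondrial folate enzyme, averaged 103 ± 65.9 in prenatal T livers and 392 ± 320 in controls. EIF4EBP1, a translation repressor, averaged 105 ± 57.0 in prenatal T livers and 201 ± 47.2 in controls. Over that list 22 of 26 estimates were below 0, with a median log2 difference of -0.38 and a median residual SD of 0.63, and the genes are not independent replicates. Each of the 5 genes had an adjusted p of 0.999.

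In muscle none of 120 passed with limma or edgeR, and 3 were higher and 6 lower at an unadjusted p under 0.05, where 7.37% of all genes were higher and 7.0% lower. DESeq2 called 2 of them, beside 259 of all genes (2.0%), so neither count stands above that of all genes. TRAF2, the adaptor that links IRE1 to JNK signalling, averaged 503 ± 174 in prenatal T muscles and 281 ± 12.1 in controls without overlap (SD, n = 5 each; limma adjusted p = 0.151; DESeq2 adjusted p = 0.0116). ERLEC1, a lectin of ER-associated degradation that binds SEL1L, averaged 173 ± 25.0 in prenatal T muscles and 259 ± 31.3 in controls without overlap (SD, n = 5 each; limma adjusted p = 0.145; DESeq2 adjusted p = 0.0179). The ERLEC1 values are those of a row matched by gene number, since, like EDEM2, it was not listed under its symbol. ERLEC1, like SEL1L, was lower by estimate in prenatal T muscles, while the list of 24 further degradation genes had 11 estimates above 0 and 13 below. Others with an unadjusted p under 0.05 included BAK1 and SEC61A1, higher at adjusted p = 0.307 and 0.315, and EIF2AK1, SLC3A2, GARS and WARS, lower at adjusted p of 0.272 to 0.346.

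Between muscle and liver effects 0 of 118 passed, and 4 had an unadjusted p under 0.05, 3 of them above 0, where 2.56% of all genes were above 0 and 2.34% below at that p. Those above 0 were SHMT2 at 0.67, BAK1 at 0.69 and EIF4EBP1 at 0.999, with adjusted p of 0.836 to 0.973. Between control liver and control muscle 78 of 124 were higher in liver and 16 lower, where 36.5% of all genes were higher and 32.8% lower. The translocation genes, which bring nascent chains into the ER, had the largest share of the 5 lists: 22 of 24 were higher in liver and 0 were lower, with a median of 2.14 and the largest difference for SEC61B (452 ± 195 CPM in control livers, n = 4, and 13.99 ± 2.93 in control muscles, n = 5, SD).

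Of the further folding genes 23 of 31 were higher in liver and 3 lower, from FKBP11 at 6.71 down to CLGN at -1.86. The further ATF4 targets split into 13 higher and 8 lower of 27, beside 36.5% higher and 32.8% lower of all genes. Among them PSAT1 and PHGDH, which act in serine synthesis, were at 5.86 and 5.70, and DDIT4 and VLDLR were at -4.27 and -5.09. In this list PSAT1, TRIB3, SESN2 and GDF15 passed the filter only through liver and STC2 only through muscle, which largely fixed their direction. The further degradation genes split into 10 higher and 4 lower of 24, with the share higher near that of all genes. The ATPase VCP at -1.20 and its cofactor NPLOC4 at -2.27 were lower in liver. The sensors and processing genes had 10 of 18 higher and 1 lower, the tRNA ligase RTCB that joins spliced XBP1 at -0.72 (adjusted p = 0.00123). The genes named from these lists for the tissue comparison were picked after their values were seen.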

How the data were processed

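The deposited signal is the authors' scaled read count of each gene in each library. The submitters' processing notes name Trimmomatic, STAR and featureCounts 1.6.1. Genome build, annotation, strand setting and the scaling tool are not given in the sources used here. In each library the values were whole multiples of 1 read (100% within 0.01 read), with size factors of the median-of-ratios kind within each tissue, so levels were compared within a tissue, and recovered reads gave TMM-scaled CPM between tissues. Per the labels' protocols, total RNA went into TruSeq libraries.

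Genes with a mean of at least 10 were tested on log2(value + 1), a scale that understates changes of low genes, with limma 3.58.1 in R 4.3.3 (mean-variance trend, Benjamini-Hochberg over all genes, threshold 0.05). The difference of treatment effects used all 19 libraries. Alternatives were edgeR 4.0.16 and DESeq2 1.42.0 on recovered reads, no filter, a mean minimum of 50, pseudocounts of 0.25 and 4, TMM or median-of-ratios rescaling, robust shrinkage, array weights, 1 fit of all libraries, the prenatal T libraries, the sheep as a block, each library left out and, added after seeing the data, CPM with no further scaling. Only the limma fits of treatment within each tissue were tested on simulated counts with known changes, and the other fits were not. Library pairs of 1 group all differed by more than sampling noise.

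The same sheep gave both tissues, per the labels, so the sheep number pairs libraries: deviations from the group means correlated at 0.103 to 0.349 within 9 sheep (median 0.177), against a median of -0.0194 between sheep.

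The members, groups and further lists were chosen with earlier results of these data known. Values in every library are given for genes with an unadjusted p under 0.05, for a fixed core of sensors, factors and chaperones, and for the smallest p of each group in each tissue, and for the largest tissue differences. Symbols were looked up in RefSeq's sheep annotation (assembly ARS-UI_Ramb_v3.0), which held all 34 symbols and was used for names and overlaps. The overlaps were found from its gene positions, while the build on which the reads were counted is not given. Levels were not compared between genes, since transcript lengths were not used here. Of the further pathway genes, 1 is not reported here by name.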

Additional observations from a re-analysis of the deposited data

Results flagged for a closer look

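In 8 of 124 groups of 4 or 5 libraries, 1 library stood apart from the rest of its group by Dixon's criterion, which chance alone meets in about 1 in 20 groups.

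In liver, CALR had 732 normalized reads in prenatal T sheep 185, against 379 to 464 in the other prenatal T livers. SDF2L1 had 1977 in control sheep 201, against 768 to 907 in the other control livers. HERPUD1 had 2897 in control sheep 179, against 1633 to 1804 in the other control livers.

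In muscle, CREB3L2 had 1442 in prenatal T sheep 255, against 536 to 688 in the other prenatal T muscles. ASNS had 61.1 in prenatal T sheep 185, against 22.7 to 29.4 in the other prenatal T muscles, and 13.7 in control sheep 201, against 28.1 to 32.5 in the other control muscles. CRELD2 had 35.2 in control sheep 132, against 12.9 to 19.1 in the other control muscles. HSPA5 had 1014 in control sheep 98, against 1361 to 1413 in the other control muscles.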

How the results depend on the processing

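No member passed the adjusted threshold for the treatment, or for its difference between tissues, under any alternative run, and the 27 higher and 3 lower calls between control tissues were the same count with each library left out. Counts over all genes moved, with causes not tested. In liver, 1 gene passed, against 32 with DESeq2, 9 in 1 fit of all libraries, 2 with array weights and 0 at a mean of at least 50. In muscle, 1 gene passed, against 259 with DESeq2, 0 at a mean of at least 50 and 0 at a pseudocount of 0.25, and 0 to 4 with a library left out. DESeq2 called 2 further pathway genes in muscle, against 0. For the difference, 1 gene passed, against 14 with DESeq2, 3 with array weights, 0 with no filter, a pseudocount of 4 or robust shrinkage, and 0 to 2 with a library left out. Members at an unadjusted p under 0.05 in liver were 1 higher and 1 lower, against 4 and 0 in 1 fit of all libraries and 4 and 2 with array weights, and 1 to 3 higher and 1 to 2 lower with a library left out. In muscle they were 1 and 1, against 2 higher with array weights, 0 higher at a mean of at least 50 (where CALR was not tested) or with no filter, and 0 lower in 1 fit of all libraries, and 0 to 2 higher and 1 to 2 lower with a library left out. For the difference they were 0 higher and 1 lower, against 0 lower after TMM rescaling, 3 lower with array weights and 2 lower with the sheep as a replicate block, and 0 to 1 higher and 0 to 3 lower with a library left out. The block changed no other call. Among these alternatives, the share of all genes at an unadjusted p under 0.05 was counted only for the block, where 3.05% were lower. The other member counts cannot be set against such a share. Between control tissues, CREB3L2 was at -0.0695 and DERL1 at -0.0104 with plain CPM, which shifted the median of all genes by -0.107, CREB3L2 was at -0.0469 in prenatal T libraries and between -0.118 and 0.208 with a library left out, and HERPUD1 was at -0.054 in prenatal T libraries. Signs of uncalled members changed under some alternative for 16 genes in liver, 10 in muscle and 12 for the difference.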
